A study of Mus musculus with 49 samples.

Results

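The 10 Krüppel-like factor genes Klf2, Klf3, Klf4, Klf5, Klf6, Klf7, Klf9, Klf10, Klf13 and Klf15 were followed through 16 conditions of mouse hepatocyte culture, dedifferentiation and organoid formation. They were found as the rows of the deposited table whose Ensembl identifier pairs with these symbols, 10 of 46078 identifiers, a rule that reads names and no measured value. The table held counts of unique molecular identifiers (UMIs) from CEL-Seq2, an assay that reads the 3′ end of transcripts, for 49 libraries of C57BL/6J wild-type cells. Levels below are CPM, counts scaled to a library total of 1e+06, with TMM factors that even out differences in RNA composition between libraries. Because CEL-Seq2 counted 3′ ends, each gene's level was compared only with the same gene in other conditions.

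Krüppel-like factors are zinc finger proteins that bind GC boxes and CACCC boxes in promoters and enhancers, and they share this type of site with the Sp factors. Klf3 recruits the corepressor CtBP, Klf9, Klf10 and Klf13 recruit Sin3A, and Klf2, Klf4, Klf5, Klf6 and Klf7 are mostly activators. In the liver Klf15 is known for amino acid catabolism and gluconeogenesis, Klf9 for responses to glucocorticoid, Klf10 for rhythmic and TGF-β-induced expression and Klf6 for induction after injury, while Klf4 and Klf5 are known from the differentiated and the proliferating parts of the intestinal epithelium.

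Hepatocytes from 10-week-old mice were sampled when freshly isolated by collagenase digestion (FH, n = 3) and in monolayer culture with EGF at 20 ng/mL, after 3 h (Hep-3h), after 1, 2 and 4 days (Hep-1d, Hep-2d, Hep-4d) and after 1 and 2 weeks (Hep-1w, Hep-2w), with n = 3 each. Hepatocytes cultured for 7 days with the Yap inhibitor verteporfin at 0.3 µM or with its solvent DMSO had 2 libraries each. Passaged dedifferentiated hepatocytes (dediHeps, n = 5) were compared with aggregates of them formed without attachment (n = 3), with spherical organoids grown from them in Matrigel (dediHep-SOs, n = 3), with chemically induced liver progenitors (CLiPs, n = 3) and with budding organoids of dediHeps that carried a Cdx2 retrovirus (dediHep-BOs, n = 3). Organoids of intestinal origin were spherical organoids of fetal intestinal progenitor cells from E13.5 embryos (FIPC-SOs, n = 3) and budding organoids of intestinal stem cells from 10-week-old adults (ISC-BOs, n = 4). The paper formed dediHep-SOs with Wnt3a and a Wnt agonist in the medium and withdrew both to obtain dediHep-BOs. It kept adult crypts without either. Matched culture names in the labels tied the aggregates and the dediHep-SOs to dediHep libraries, and nothing in the labels says that other libraries of a group came from separate animals. The paper states that its experiments were repeated independently, but it ties no library to an animal. Which libraries share an animal is therefore not known, and p-values may measure only technical spread.

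Library totals ran from 861047 to 3872936 counts, so 1 count weighed more in the FH and Hep-3h libraries (1211070 to 1523804) than in most others. TMM factors were 0.589 to 0.678 in the FH and Hep-3h libraries and 0.91 to 1.267 in all others. The CPM of FH and Hep-3h libraries therefore lie higher than by library total alone, and their order against other conditions can depend on this scaling. Hepatocyte markers (6 genes, Alb to Cps1) summed to 14800 to 18000 CPM in FH and to 102 to 135 CPM in dediHep-SOs, where 2 of the 6 were at 0, and intestinal markers (10 genes) summed to 3350 to 4040 CPM in dediHep-BOs and 3740 to 4630 CPM in ISC-BOs with none at 0. The dediHep-SO library of replicate 3 stood apart from the other two for several members and is named where it matters. In bulk RNA fewer cells of a type and less RNA per cell cannot be told apart.

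The stretches before the transcription start sites of Klf6, Klf4, Klf9 and Klf15 are shown because Klf6 and Klf4 rose in culture and Klf9 and Klf15 fell. Klf6 rose by 3 h and Klf4 later, and their Pearson correlation over the 16 condition means of log2 CPM was -0.207. The promoter table used here (RefSeq, GRCm38.p6) held 8 of the 10 members, all but Klf5 and Klf10. Each stretch holds the 250 bases before the start, 5′ to 3′ on the gene's own strand: chr13:5861239-5861488 (+) for Klf6, chr4:55532476-55532725 (-) for Klf4, chr19:23140976-23141225 (+) for Klf9 and chr6:90462326-90462575 (+) for Klf15. Capitals mark, on either strand, the GC box, spelled GGGCGG, the CACCC box, named for its letters, the E-box, spelled CACGTG, and the CRE core, spelled TGACG, and motifs of different kinds do not overlap in these windows, while 2 of the GC boxes of Klf4 share a base.
Klf6: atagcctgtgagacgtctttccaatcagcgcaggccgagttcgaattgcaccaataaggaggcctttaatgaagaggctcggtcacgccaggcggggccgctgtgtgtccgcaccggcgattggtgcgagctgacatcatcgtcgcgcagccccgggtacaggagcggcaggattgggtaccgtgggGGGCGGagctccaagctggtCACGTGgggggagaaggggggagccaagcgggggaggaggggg
Klf4: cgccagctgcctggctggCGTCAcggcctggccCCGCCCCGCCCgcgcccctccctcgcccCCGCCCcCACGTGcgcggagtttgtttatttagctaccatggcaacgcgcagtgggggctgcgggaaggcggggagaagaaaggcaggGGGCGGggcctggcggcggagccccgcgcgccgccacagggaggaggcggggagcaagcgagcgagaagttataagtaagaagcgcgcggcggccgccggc
Klf9: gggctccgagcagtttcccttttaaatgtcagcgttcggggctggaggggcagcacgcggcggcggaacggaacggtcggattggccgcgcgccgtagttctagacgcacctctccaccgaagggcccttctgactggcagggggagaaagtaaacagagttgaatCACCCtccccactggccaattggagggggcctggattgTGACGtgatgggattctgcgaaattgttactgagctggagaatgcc
Klf15: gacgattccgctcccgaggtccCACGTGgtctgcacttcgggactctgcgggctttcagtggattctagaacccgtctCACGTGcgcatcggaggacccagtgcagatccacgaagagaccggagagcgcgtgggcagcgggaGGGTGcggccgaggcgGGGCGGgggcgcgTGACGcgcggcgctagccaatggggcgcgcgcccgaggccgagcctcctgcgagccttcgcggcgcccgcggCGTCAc

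The Klf4 window held 4 GC boxes, and the Klf6 and Klf15 windows held 1 each. Among 32851 promoter windows of this length, 32.7% held at least 1 GC box. Klf9 had no GC box but 1 CACCC box, which 52% of all windows also had. The E-box, found in 6.02% of all windows, occurred once in Klf4, once in Klf6 and 2 times in Klf15, and the CRE core, found in 17.8%, occurred once in Klf4, once in Klf9 and 2 times in Klf15. A match to these letters describes the sequence and is no evidence that a factor binds there.

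To see which members changed as hepatocytes were taken into culture, each time point was compared with FH. At 3 h Klf6 and Klf10 rose steeply, while Klf15 and Klf9 already lay lower. From 1 day onward Klf5 was detected for the first time, Klf6 stayed high, Klf7 rose and Klf15 fell to at most 11.5 CPM. Klf4 rose later, and Klf3 passed the test at no time. A gene was termed called when its FDR in edgeR was under 0.1 and its absolute log2 fold change was over 2. The called members numbered 2 of 10 at 3 h (6.91% of 12443 genes tested were called), 3 at 1 day (17.4%), 3 at 2 days (21.3%), 3 at 4 days (23.8%), 4 at 1 week (25.9%) and 5 at 2 weeks (29.5%). These 6 comparisons share the FH libraries. At 4 days the count of 3 rose to 5 or 6 without FH replicate 2, FH replicate 3, Hep-4d replicate 1 or Hep-4d replicate 2.

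**Figure D1:**
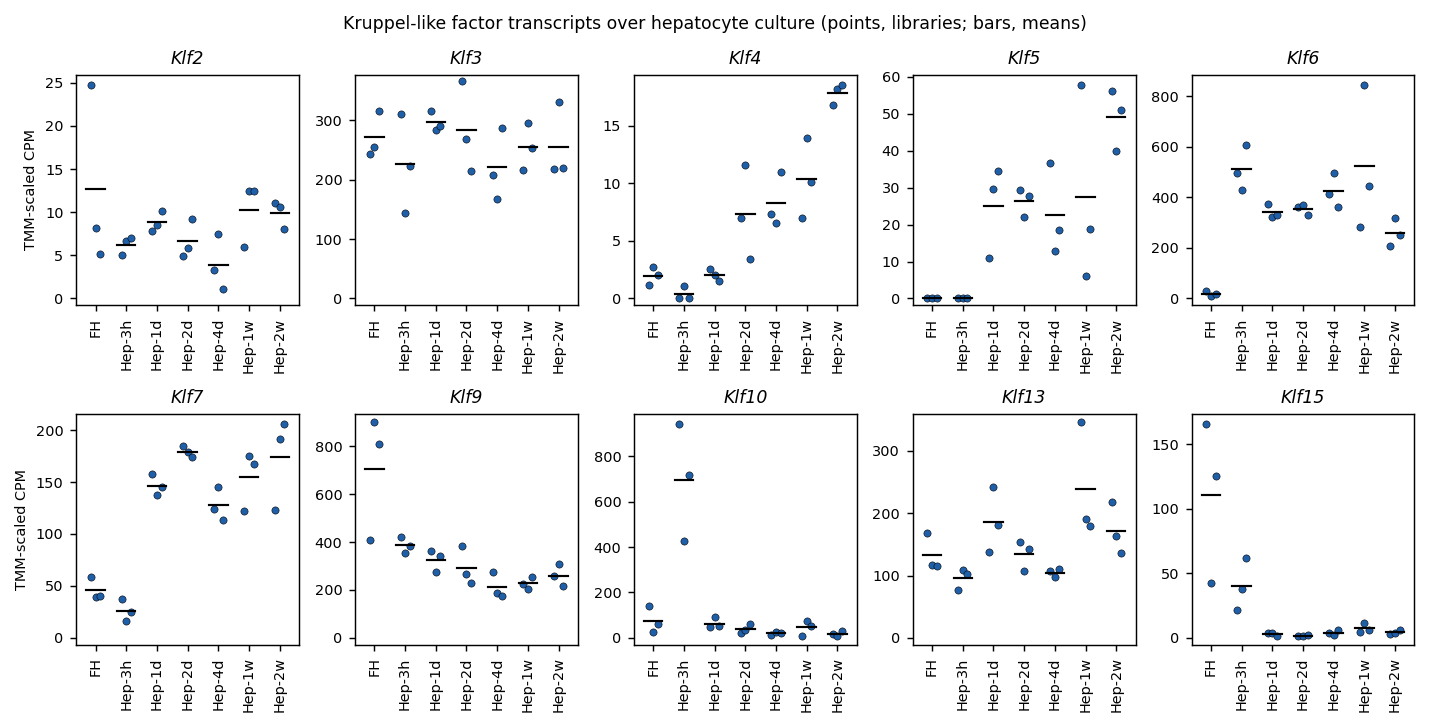
TMM-scaled CPM (vertical axis, linear, 1 scale per gene) of the 10 members in fresh hepatocytes and at 6 times of culture; points are libraries (n = 3 each) and bars are means. Klf6 and Klf10 are high at 3 h, Klf5 is at 0 in FH and Hep-3h, and all Klf15 libraries from 1 day on lie at or below 11.5 CPM.

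Klf6 (chr13:5861482-5870394) is a gene that many injured tissues induce early. It read 29.5, 8.22 and 16.5 CPM in FH and 497, 429.5 and 605 CPM in Hep-3h. All plated libraries lay far above all FH libraries. The rise at 3 h was 4.79 ± 0.432 on the log2 scale (SE, FDR 2.68e-07), or 27.6-fold, and the log2 difference stayed between 3.81 and 4.78 at the later times. The Hep-1w libraries spread widely, at 282, 844 and 444 CPM, but each exceeded the highest FH library. The highest count in the table, 4096, equals the number of UMI sequences of 6 bases. A UMI length of 6 bases was inferred from this ceiling, and with that length high counts are compressed. A correction for shared UMIs that takes this length raised the log2 difference at 1 week from 4.78 to 5.11.

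Klf10 (chr15:38291463-38300706), a TGF-β-inducible early gene, showed a pulse. It measured 140.4, 26.0 and 61.9 CPM in FH, 941, 426 and 719 CPM in Hep-3h and 46.8, 90.1 and 50.8 CPM in Hep-1d. The 3 h libraries exceeded all libraries before and after. The rise was 3.17 ± 0.672 (log2, SE, FDR 0.00457) and the fall from 3 h to 1 day was -3.54 ± 0.677 (FDR 0.000264). Klf10 then fell below FH by 2.25 ± 0.695 on the log2 scale at 2 weeks (FDR 0.0105), although its 14.99, 7.62 and 27.8 CPM overlapped the FH range. That change was under the fold threshold without FH replicate 1 (-1.5) or Hep-2w replicate 2 (-1.78). At 4 days the log2 difference of -1.90 (FDR 0.0261) was lost without FH replicate 1 (-1.14, FDR 0.201), and lay between -2.29 and -2.02 without FH replicate 2, FH replicate 3 or Hep-4d replicate 2.

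Early-response genes (Fos, Fosb, Jun, Junb, Egr1, Atf3, Ier2, Dusp1), which cells switch on within minutes to hours of a stimulus, moved beside Klf6 and Klf10 at 3 h. Of the 8, 4 were called higher and none lower, where 6.91% of genes tested were called in either direction. The median log2 difference was 1.49 against -0.0718 over all genes tested. Atf3, a stress-induced factor, rose by 3.49 and Egr1, a zinc finger factor, by 2.28. From 1 day to 2 weeks 3 or 4 of the 8 were called lower than FH at each time and none higher, whereas Klf6 remained above FH. Over these times 17.4% to 29.5% of genes tested were called in either direction. Their part in the changes of Klf6 and Klf10 was not tested.

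Klf5 (chr14:99298691-99315036), a factor of proliferating epithelium, had 0 counts in all 3 FH and all 3 Hep-3h libraries. It then measured 10.8, 29.7 and 34.6 CPM in Hep-1d and 56.0, 39.9 and 51.0 CPM in Hep-2w. Set against 3 counts over the FH libraries, Klf5 was at least 20.6-fold higher in Hep-1d, and at least 22.3, 19.8, 25.1 and 42.5-fold higher at 2 days, 4 days, 1 week and 2 weeks. Its FDR ran from 2.95e-05 to 0.000362 over these times. The Hep-1w libraries differed among themselves, at 57.7, 5.98 and 18.9 CPM. The cycling markers Mki67 and Top2a summed to 3.47 to 4.57 CPM at 1 day and 242 to 824 CPM at 2 days, so Klf5 was detected at a time when these were still low.

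Klf15 (chr6:90462576-90475238), a regulator of amino acid breakdown, went the other way. FH libraries held 165, 42.4 and 124.9 CPM, Hep-3h libraries 21.7, 37.4 and 61.7 CPM and Hep-1d libraries 3.90, 4.03 and 1.53 CPM. The FH and Hep-3h ranges overlapped, and the Hep-1d libraries lay below both. The log2 difference from FH was -1.47 ± 0.476 at 3 h (SE, FDR 0.0476), which did not pass without FH replicate 1, FH replicate 3, Hep-3h replicate 1 or Hep-3h replicate 2 (FDR 0.135 to 0.169). It was -5.18 ± 0.575 at 1 day (FDR 4.33e-07), -6.16 ± 0.615 at 2 days (FDR 5.46e-08) and -4.83 ± 0.578 at 2 weeks (FDR 4.41e-07), with no library that changed these calls. The fall from 3 h to 1 day alone was -3.71 ± 0.564 (FDR 2.18e-05).

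Klf9 (chr19:23141226-23168134), a repressor induced by glucocorticoid, fell more gradually. FH held 407, 899.5 and 808 CPM, Hep-1d 363, 273 and 341 CPM and Hep-4d 273, 187 and 176 CPM. FH replicate 1 was the lowest of its group but still above every Hep-1d and Hep-4d library. By library total alone it read 276 CPM, within the Hep-1d range of 259 to 364 CPM. The log2 differences from FH were -0.89 at 3 h (FDR 0.0558), -1.21 at 1 day (FDR 0.00336), -1.81 at 4 days (FDR 5.45e-05) and -1.47 at 2 weeks (FDR 0.000387). The 3 h difference did not pass without FH replicate 2, FH replicate 3, Hep-3h replicate 2 or Hep-3h replicate 3 (FDR 0.129 to 0.243), while at 4 days the difference was past the fold threshold without FH replicate 1 or Hep-4d replicate 1 (-2.08 to -2.01).

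The glucocorticoid-response list (Fkbp5, Per1, Tsc22d3, Zbtb16, Sgk1, Tat, Pdk4, Mt2) held genes of both directions. At 3 h 3 of its 8 genes were called higher and none lower, where 6.91% of genes tested were called in either direction. The median was 0.694 against -0.0718 over all genes, and 2 more passed the FDR threshold lower. At 2 weeks 2 were called higher and 1 lower, where 29.5% of genes tested were called in either direction, with a median of -0.306 against 0.0371. Sgk1, a salt-responsive kinase, measured 117 CPM in FH and 1062 CPM in Hep-2w, and Tat, tyrosine aminotransferase, 528 CPM in FH and 0 in Hep-2w. The part of this list in the Klf9 and Klf15 values was not tested.

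Klf7 (chr1:64029447-64122282), a widely expressed member best known from neurons, dipped and then rose. It measured 59.0, 39.7 and 40.2 CPM in FH, 36.9, 16.5 and 24.4 CPM in Hep-3h and 157, 137.5 and 144.9 CPM in Hep-1d. The Hep-1d libraries exceeded all FH and Hep-3h libraries, and the rise from 3 h to 1 day was called (log2 2.43 ± 0.323, FDR 4.43e-06). Against FH the log2 differences were 1.57, 1.87, 1.40, 1.68 and 1.89 from 1 day to 2 weeks, with FDR from 3.1e-05 to 0.000877. They stayed under the fold threshold except without FH replicate 1 at 2 days (2.08) and without FH replicate 1 or Hep-2w replicate 1 at 2 weeks (2.09 to 2.11), and at both times with counts corrected for shared UMIs (2.01 each). The dip at 3 h (-0.86, FDR 0.0897) was lost without any 1 of FH replicates 1, 2 and 3 and Hep-3h replicates 2 and 3 (FDR 0.132 to 0.297).

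Klf4 (chr4:55527143-55532466), a reprogramming factor that also marks differentiated gut epithelium, rose late. It measured 1.18, 2.74 and 2.06 CPM in FH, which is 5 counts in all, and a single count over the Hep-3h libraries. It reached 7.04, 14.0 and 10.1 CPM in Hep-1w and 16.8, 18.2 and 18.5 CPM in Hep-2w, all above FH. The log2 difference was 1.80 at 2 days (FDR 0.0282), 1.96 at 4 days (FDR 0.0162), 2.28 ± 0.619 at 1 week (FDR 0.00483) and 3.11 ± 0.612 at 2 weeks (FDR 0.000237). The early differences rested on few counts. At 2 days the difference, not called with all libraries, did not pass the FDR threshold without FH replicate 1 or Hep-2d replicate 2 (FDR 0.107 to 0.142). It passed the fold threshold without FH replicate 2 or Hep-2d replicate 3 (2.07 to 2.14). At 4 days the fold threshold was passed without FH replicate 2, FH replicate 3, Hep-4d replicate 1 or Hep-4d replicate 2 (2.01 to 2.22).

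The remaining members moved little. Klf3 (chr5:64803388-64832901), which recruits CtBP, measured 243, 255 and 316 CPM in FH and from 143 to 366 CPM over the culture libraries. None of its 6 log2 differences from FH, -0.37 to 0.04, passed the FDR threshold. Klf13 (chr7:63886351-63938915), a Sin3A-binding repressor, measured 167.5, 116 and 114.5 CPM in FH and 346, 190.0 and 179.8 CPM in Hep-1w. That rise of 0.78 (FDR 0.0451) was lost without FH replicate 2, FH replicate 3 or Hep-1w replicate 1 (FDR 0.126 to 0.289).

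Klf2 (chr8:72319033-72321656), a flow-responsive factor of endothelium, measured 24.8, 8.22 and 5.16 CPM in FH and 3.25, 7.46 and 1.10 CPM in Hep-4d, and the ranges overlapped. The log2 difference of -1.70 (FDR 0.0246) did not pass without FH replicate 1 or Hep-4d replicate 3 (-1.28 to -0.771, FDR 0.104 to 0.362), and was past the fold threshold without FH replicate 3 or Hep-4d replicate 2 (-2.51 to -2.08). At 2 days a difference of -1.38 passed the FDR only without FH replicate 3 (FDR 0.074). The 8 endothelial markers, of which none was at 0 in either group, summed to 209 to 349 CPM in FH and 11.5 to 53.3 CPM in Hep-4d. In dediHeps they summed to 0.789 to 1.68 CPM, with 4 of the 8 at 0, while Klf2 had its highest mean of all conditions there, 17.1 CPM. The part of these markers in the Klf2 values was not tested.

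The step from 3 h to 1 day was also compared directly. Here 5 of 10 members were called, against 24.2% of genes tested: Klf4, Klf5 and Klf7 rose, and Klf10 and Klf15 fell. Klf5 was at least 20.7-fold higher at 1 day. For Klf4 the 13 counts at 1 day against 1 count at 3 h gave a ratio of 5.3 with a 95% exact counting interval of 0.796 to 225, and its call (FDR 0.0943) was lost without Hep-1d replicate 1 or 2 or without Hep-3h replicate 1 or 3 (FDR 0.113 to 0.263), and with DESeq2 (FDR 0.202). Klf13 rose by 0.89 (FDR 0.0241), which was lost without Hep-1d replicate 2 (0.655, FDR 0.123). Klf6, at 342 CPM on average in Hep-1d and 510.5 CPM in Hep-3h, did not pass the FDR threshold. By library total alone these means were 326 CPM in Hep-1d and 304 CPM in Hep-3h.

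In dediHeps, the passaged cells, 4 of 10 members were called against FH, where 25.7% of 11276 genes tested were. Klf4, Klf5 and Klf6 were higher and Klf15 was lower. Klf6 measured 1332, 534, 358, 354 and 322 CPM in the 5 dediHep libraries, a log2 difference of 4.89 ± 0.718 from FH (FDR 0.000288). Klf5 measured 41.4, 48.2, 60.1, 36.3 and 54.9 CPM, which is at least 41.7-fold above FH. Klf4 measured 95.6, 20.6, 14.2, 58.0 and 12.3 CPM (4.20 ± 0.966, FDR 0.0054), so even the lowest library lay above FH while the libraries differed widely from each other.

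Klf15 measured 20.1, 14.6, 11.2, 18.2 and 35.0 CPM in dediHeps, all below the lowest FH library at 42.4 CPM (-2.61 ± 0.486, FDR 0.00148). By library total alone, dediHep replicate 5 (37.7 CPM) lay above FH replicate 2 (25.6 CPM). Klf7 rose by 1.89 (FDR 0.0014), and passed the fold threshold without FH replicate 1 (2.10) and without the low-count filter (2.02). Klf9 fell by 1.24 (FDR 0.016), with dediHep replicate 5 at 478 CPM inside the FH range. The log2 differences of Klf2, Klf3, Klf10 and Klf13, -0.57 to 0.51, did not pass.

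Genes that act with these factors were read from fixed lists. Of the 7 corepressor genes Ctbp1, Ctbp2, Sin3a, Sin3b, Sap30, Hdac1 and Hdac2, 1 was called higher in dediHeps than in FH and none lower, where 25.7% of genes tested were called in either direction. The median was 1.39 against 0.082 over all genes. The called gene was Ctbp2, with 393 counts against 2, a ratio of 42.6 (95% exact counting interval 11.7 to 353). Of the ubiquitin ligase genes Wwp1 and Fbxw7, which mark Klf5 and Klf2 for degradation, Wwp1 fell from 236 to 40.1 CPM (log2 -2.67, FDR 0.000418). Fbxw7 did not pass the FDR threshold, and the median of these genes was -1.33. Their part in the Klf5 and Klf2 values was not tested. Of the 8 other Klf genes only Klf11 and Klf16 had enough counts for a test, and neither passed in this comparison. Of the Sp genes 3 were tested in dediHeps and none passed.

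**Figure D2:**
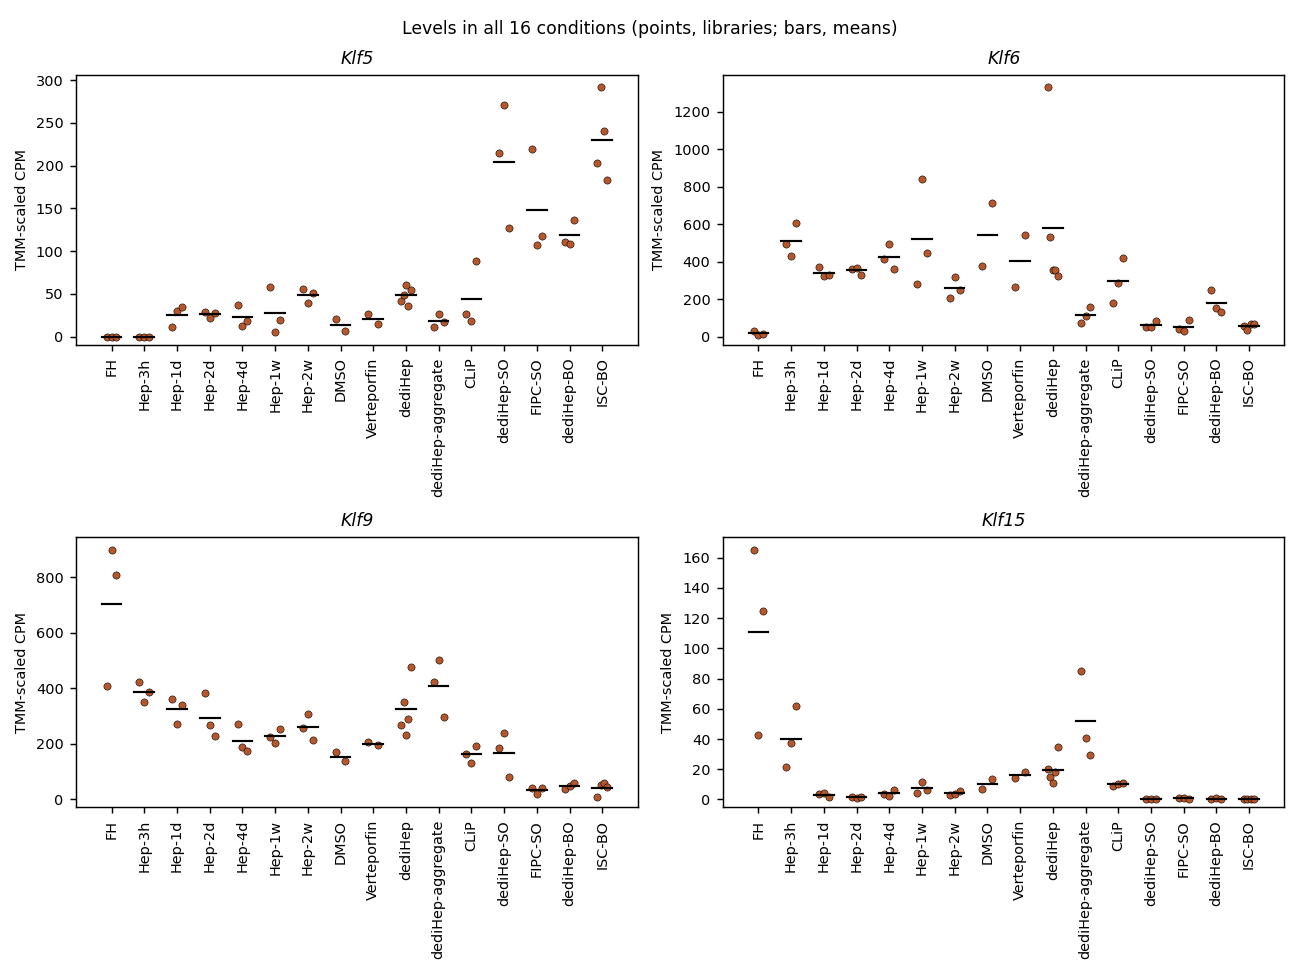
TMM-scaled CPM (vertical axis, linear) of Klf5, Klf6, Klf9 and Klf15 in all 16 conditions; points are libraries (n = 2 to 5) and bars are means. Klf5 is highest in the 4 organoid conditions, Klf9 and Klf15 are highest in FH, and dediHep replicate 1 is the top Klf6 library at 1332 CPM.

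When dediHeps were placed in aggregates, the culture form used for redifferentiation towards hepatocytes, Klf6, Klf5 and Klf2 fell, and Klf15 rose. Klf6 measured 71.8, 111 and 158 CPM in aggregates, below all 5 dediHep libraries (-2.35 ± 0.543, FDR 0.0193). It was the 1 member called, against 9.51% of 11265 genes tested. Without dediHep replicate 1 the fall was 1.79 (FDR 0.00568) and no member was called. Klf5 measured 11.3, 26.5 and 16.8 CPM, below all dediHep libraries (-1.39 ± 0.367, FDR 0.0322), a difference lost without aggregate replicate 1 or 3 (FDR 0.117 to 0.125).

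Klf15 measured 84.7, 40.8 and 29.5 CPM in aggregates against 11.2 to 35.0 CPM in dediHeps, so only the third library overlapped (1.39 ± 0.448, FDR 0.0607). The rise did not pass without dediHep replicate 2, dediHep replicate 3, aggregate replicate 1 or aggregate replicate 2 (0.83 to 1.55, FDR 0.1 to 0.288). Aggregate replicate 1 lay in the FH range of 42.4 to 165 CPM, and aggregate replicates 2 and 3 lay below it. By library total alone, all aggregate libraries (27.45 to 77.1 CPM) lay in the FH range of 25.6 to 112 CPM. Klf9 measured 424, 502 and 297 CPM, and its difference from dediHeps (0.34, 95% interval -0.306 to 0.989) did not pass.

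Klf2 measured 1.61, 9.11 and 2.54 CPM in aggregates against 6.62 to 30.7 CPM in dediHeps (-1.87 ± 0.648, FDR 0.076). The fall did not pass without dediHep replicate 1, dediHep replicate 2, aggregate replicate 1 or aggregate replicate 3 (FDR 0.109 to 0.238), and Klf2 was called, making 2 members called, without dediHep replicate 5 or aggregate replicate 2 (-2.95 to -2.07). With the shared culture as a block, in a fit where each aggregate is set against its own dediHep culture, Klf2 was also called (-2.23, FDR 0.0375), and Klf4 passed the FDR threshold (-1.64, FDR 0.0366). Without the block Klf4, at 15.3, 12.2 and 19.3 CPM, gave -1.35.

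Early-response genes fell beside Klf6 in the aggregates. Of the 8, 6 were called lower, where 9.51% of genes tested were called in either direction. The median was -2.38 against -0.0659 over all genes. Fos measured 245 CPM on average in dediHeps and 19.9 CPM in aggregates, and Atf3 317 and 63.4 CPM. Cycling markers summed to 184 to 1280 CPM in dediHeps and 2.42 to 52.9 CPM in aggregates, and hepatocyte markers to 841 to 3990 and, with 1 of 6 at 0, 5940 to 9760 CPM. The part of these in the Klf values was not tested. Of the corepressor genes 1 of 7, Sap30, was called lower, against the same 9.51% of all genes tested, with a list median of -0.92.

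In spherical organoids 4 of 10 members were called against dediHeps, where 8.76% of 11470 genes tested were. Klf15, Klf2 and Klf6 fell and Klf5 rose. Klf15 gave 1 count over the 3 dediHep-SO libraries against 222 in dediHeps, a ratio of 138 (95% exact counting interval 24.5 to 5470, FDR 0.000573). Klf2 measured 0.642, 1.98 and 3.24 CPM (-3.16 ± 0.669, FDR 0.0115), and Klf6 measured 52.4, 53.6 and 81.9 CPM (-3.24 ± 0.562, FDR 0.0036). All dediHep-SO libraries lay below all dediHep libraries for these members.

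Klf5 measured 215, 270.2 and 127 CPM in dediHep-SOs, above all dediHep libraries (2.08 ± 0.313, FDR 0.00162). Its fold lay just under the threshold without dediHep replicate 4 (1.98) or dediHep-SO replicate 2 (1.84), and with the shared culture as a block (1.96, FDR 0.039). Klf7 fell by 1.25 (FDR 0.0241), which was lost without dediHep-SO replicate 1 or 2 (FDR 0.131 to 0.139) and with the block (FDR 0.192). Klf13 fell by 1.04 (FDR 0.0504), which was lost without dediHep replicate 5 or any 1 of the 3 dediHep-SO libraries, replicates 1, 2 and 3 (FDR 0.108 to 0.147), and with the block (FDR 0.329). Klf4 measured 58.8, 65.0 and 68.9 CPM, inside the dediHep range.

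The same lists moved in this comparison, where 8.76% of genes tested were called in either direction. Of 8 early-response genes 5 were called lower (median -2.91 against -0.0523 over all genes, and the same with Fosb, which had 0 counts in dediHep-SOs, at its bound). Of the 8 glucocorticoid-response genes 5 had enough counts for a test, and 3 were called lower, with a median of -2.19 against -0.0523 over all genes. Fkbp5, a chaperone partner of the glucocorticoid receptor, measured 141 CPM in dediHeps and 13.49 CPM in dediHep-SOs. Klf9, at 187, 239 and 79.6 CPM, gave -0.95 and did not pass. Among the Sp genes Sp5, a Wnt-responsive member, was the 1 called of 4 tested (5.44, FDR 0.00834), at 7.39, 8.92 and 63.4 CPM in dediHep-SOs and at most 2.24 CPM in dediHeps. The library of replicate 3 was far above the others. The medium in which the paper formed dediHep-SOs held Wnt3a and a Wnt agonist, and their part in the Sp5 values was not tested.

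**Figure D3:**
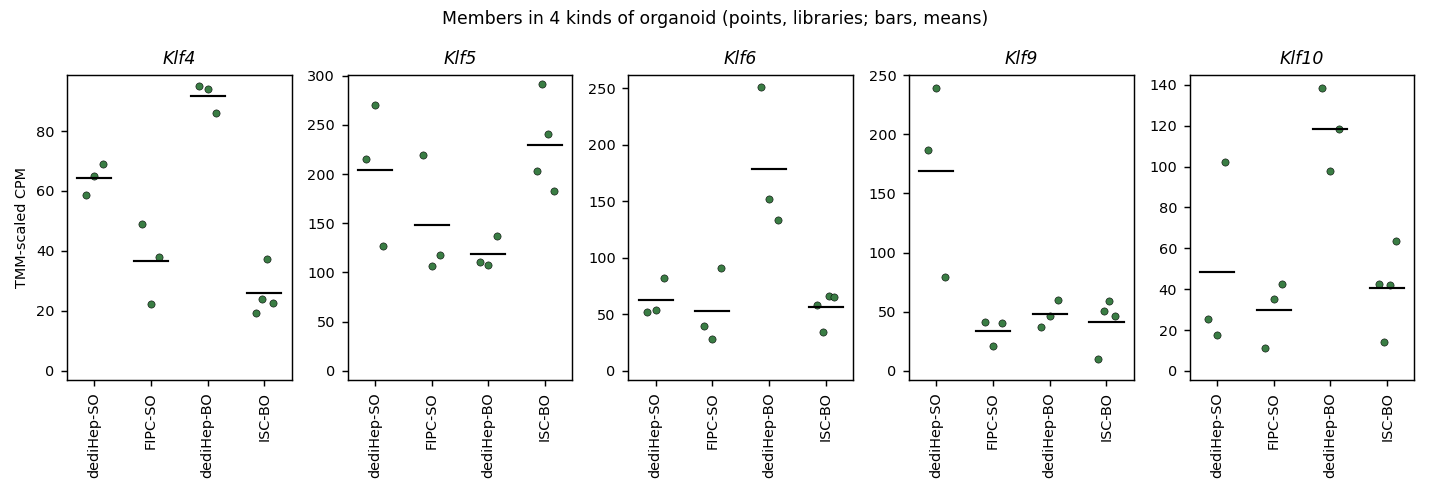
TMM-scaled CPM (vertical axis, linear, 1 scale per gene) of Klf4, Klf5, Klf6, Klf9 and Klf10 in dediHep-SO, FIPC-SO, dediHep-BO and ISC-BO libraries; points are libraries (n = 3, 3, 3 and 4) and bars are means. The dediHep-BO libraries lie above all ISC-BO libraries for Klf4, Klf6 and Klf10 and below them for Klf5.

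Spherical organoids of the 2 origins were then set side by side. Klf9 was the 1 called of 8 members tested, where 8.91% of genes were called. It measured 187, 239 and 79.6 CPM in dediHep-SOs against 40.9, 20.7 and 40.8 CPM in FIPC-SOs, with no overlap (2.26 ± 0.454, FDR 0.00855). Without dediHep-SO replicate 2 the difference was 1.93 (FDR 0.0417). Klf3 was higher (0.67, FDR 0.0999) and Klf7 lower (-0.86, FDR 0.0917) in dediHep-SOs, and each was lost without any 1 of FIPC-SO replicates 1, 2 and 3 and dediHep-SO replicates 1 and 2 (FDR 0.1 to 0.33 for Klf3 and 0.105 to 0.287 for Klf7).

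Klf13 passed the FDR threshold without dediHep-SO replicate 3 (0.896, FDR 0.0283) and Klf4 without FIPC-SO replicate 1 (1.04, FDR 0.0791), but neither did with all libraries in the edgeR fit of the 2 groups. With all libraries Klf4 passed with a replicate block (0.831, FDR 0.0713) and Klf13 with all 49 libraries in 1 fit (0.724, FDR 0.0939). Klf2 and Klf15 had too few counts for the test. Klf2 gave 13 counts against 1, a ratio of 15.2 (95% exact counting interval 2.28 to 646), and Klf15 1 count against 7.

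Budding organoids of dediHeps with Cdx2 differed from dediHep-SOs in Klf6, Klf9 and Klf5, but edgeR called none of 8 members tested, where 11.3% of genes were called, and 4 had an unadjusted p under 0.05. DESeq2 also called 0. Klf6 measured 251, 152 and 133.5 CPM in dediHep-BOs, above all dediHep-SO libraries (1.55 ± 0.331, FDR 0.00783). Klf9 measured 36.9, 46.8 and 60.1 CPM, below them (-1.78 ± 0.403, FDR 0.0105). Klf5 measured 111, 108 and 137 CPM and overlapped them (-0.75, FDR 0.089), a difference lost without any 1 of dediHep-BO replicates 1, 2 and 3 and dediHep-SO replicates 1 and 2 (FDR 0.13 to 0.324). Early-response genes did not rise beside Klf6 here. Of 7 tested none was called, 1 passed the FDR threshold higher and 2 lower, with a median of -0.389 against -0.00454 over all genes. Their part in the Klf6 values was not tested.

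Without dediHep-SO replicate 3 the count of members called was 2, Klf9 (-2.07) and Klf10 (2.53), and Klf4 (0.647, FDR 0.0379) and Klf7 (0.617, FDR 0.0955) passed the FDR threshold. Klf10 measured 25.4, 17.4 and 102 CPM in dediHep-SOs and 139, 97.9 and 118.5 CPM in dediHep-BOs. The replicate 3 library thus lay within the dediHep-BO range. Klf15 gave 2 counts over the dediHep-BO libraries and 1 over the dediHep-SO libraries, too few for a fold.

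Between budding organoids of the 2 origins edgeR called none of 8 members tested, where 3.05% of genes were called, and 5 had an unadjusted p under 0.05. DESeq2 called 0 as well. Under the fold threshold, Klf4 was higher in dediHep-BOs, at 95.1, 93.9 and 85.9 CPM against 19.5 to 37.3 CPM in ISC-BOs (1.85 ± 0.281, FDR 0.00342). Without ISC-BO replicate 3 the difference was 2.08, which made it the 1 member called. Klf6 was also higher (1.70 ± 0.312, FDR 0.0095), with ISC-BO libraries at 34.7 to 66.5 CPM. Klf10, at 14.2 to 63.4 CPM in ISC-BOs, was higher in dediHep-BOs (1.57 ± 0.401, FDR 0.0442), which was lost without ISC-BO replicate 1, dediHep-BO replicate 1 or dediHep-BO replicate 2 (FDR 0.104 to 0.172).

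Klf5 was lower in dediHep-BOs than in ISC-BOs, which measured 203, 292, 241 and 183 CPM (-0.92 ± 0.237, FDR 0.0449), and this was lost without dediHep-BO replicate 1 or 2 (FDR 0.184 to 0.188). Klf3 passed without ISC-BO replicate 4 (0.709, FDR 0.0525). Stellate cell and fibroblast markers (7 genes) summed to 4.17 to 197 CPM in dediHep-BOs with 2 at 0 and to 2.51 to 7.86 CPM in ISC-BOs with 5 at 0, and their part was not tested. Of 7 early-response genes tested 1, Dusp1, was called higher, where 3.05% of all genes tested were called in either direction. The list median was 0.554 against -0.00138 over all genes.

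The difference between budding and spherical organoids was compared between the 2 origins. The intestinal pair joins embryonic FIPC-SOs with adult ISC-BOs, and of the budding organoids the dediHep-BOs carry the Cdx2 virus. Wnt3a and a Wnt agonist were withdrawn from the medium to obtain dediHep-BOs. Organoid form, medium, age and virus therefore cannot be told apart. Within the intestinal pair, ISC-BOs against FIPC-SOs, edgeR called none of 8 members (6.62% of genes were called), 1, Klf13, had an unadjusted p under 0.05 and DESeq2 called 0. Klf5 passed the FDR threshold there only without FIPC-SO replicate 1 (1.01, FDR 0.0434). Where the 2 differences were set against each other, 1 of 8 members was called, Klf9, against 9.45% of genes. Klf9 fell by 1.78 on the log2 scale between dediHep-SOs and dediHep-BOs, and the intestinal pair differed by 0.26 without passing the test, an interaction of -2.07 ± 0.717 (FDR 0.0787). It was lost without any 1 of 9 libraries, FIPC-SO replicates 2 and 3, ISC-BO replicates 2 and 3, dediHep-BO replicates 1, 2 and 3 and dediHep-SO replicates 1 and 2 (-2.24 to -1.76, FDR 0.1 to 0.191), and with a replicate block (-1.94, FDR 0.117).

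Klf5 gave an interaction of -1.38 ± 0.439 (FDR 0.0597), lost without any 1 of FIPC-SO replicates 2 and 3, dediHep-BO replicates 1 and 2 and dediHep-SO replicates 1 and 2 (FDR 0.124 to 0.159) and with all 49 libraries in 1 fit (FDR 0.248). Without dediHep-SO replicate 3 Klf10 was called as well (2.05, FDR 0.0496), which made 2. Klf4, Klf6 and Klf13 passed the FDR threshold without some single libraries: Klf4 without FIPC-SO replicate 2, ISC-BO replicate 3 or dediHep-SO replicate 3 (1.07 to 1.31), Klf6 without FIPC-SO replicate 1, FIPC-SO replicate 2, ISC-BO replicate 4 or dediHep-SO replicate 3 (1.56 to 1.78), and Klf13 without ISC-BO replicate 3, ISC-BO replicate 4 or dediHep-SO replicate 3 (-1.16 to -0.976). With all libraries their FDR values were 0.121, 0.104 and 0.103. Under other settings Klf6 passed with DESeq2, with a replicate block, without the low-count filter and with corrected counts (FDR 0.0192 to 0.0937), Klf13 with DESeq2 and RLE scaling (FDR 0.0518 and 0.0973) and Klf4 with DESeq2 (FDR 0.0952).

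CLiPs, the progenitors made with small molecules, were compared with dediHeps. edgeR called none of 10 members, where 3.04% of genes were called, and 2, Klf2 and Klf9, had an unadjusted p under 0.05. Klf2 measured 0, 2.31 and 4.97 CPM in CLiPs, below all dediHep libraries (-2.76 ± 0.844, FDR 0.129). DESeq2 called Klf2 (-2.77, FDR 0.00825). Klf9 measured 165, 130.1 and 194 CPM (-0.96, FDR 0.16), also below all dediHep libraries. Klf5 was uneven in CLiPs, at 26.1, 18.3 and 88.6 CPM, and the interval of its log2 difference from dediHeps was -1.2 to 1.02.

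Verteporfin against DMSO, 2 libraries each, gave no member called and none with an unadjusted p under 0.05 in edgeR, and DESeq2 called 0. Only 0.269% of 10400 genes tested were called. Klf6 measured 264 and 542 CPM with verteporfin and 378 and 711 CPM with DMSO. The log2 difference was -0.41 with a 95% interval of -1.22 to 0.389, and it passed the FDR threshold only without Verteporfin replicate 2 (-0.998, FDR 0.0535). Klf5 measured 26.5 and 14.9 CPM against 21.1 and 6.71 CPM (0.63, interval -0.539 to 1.79). These p-values do not show that the members were unaffected.

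**Figure D4:**
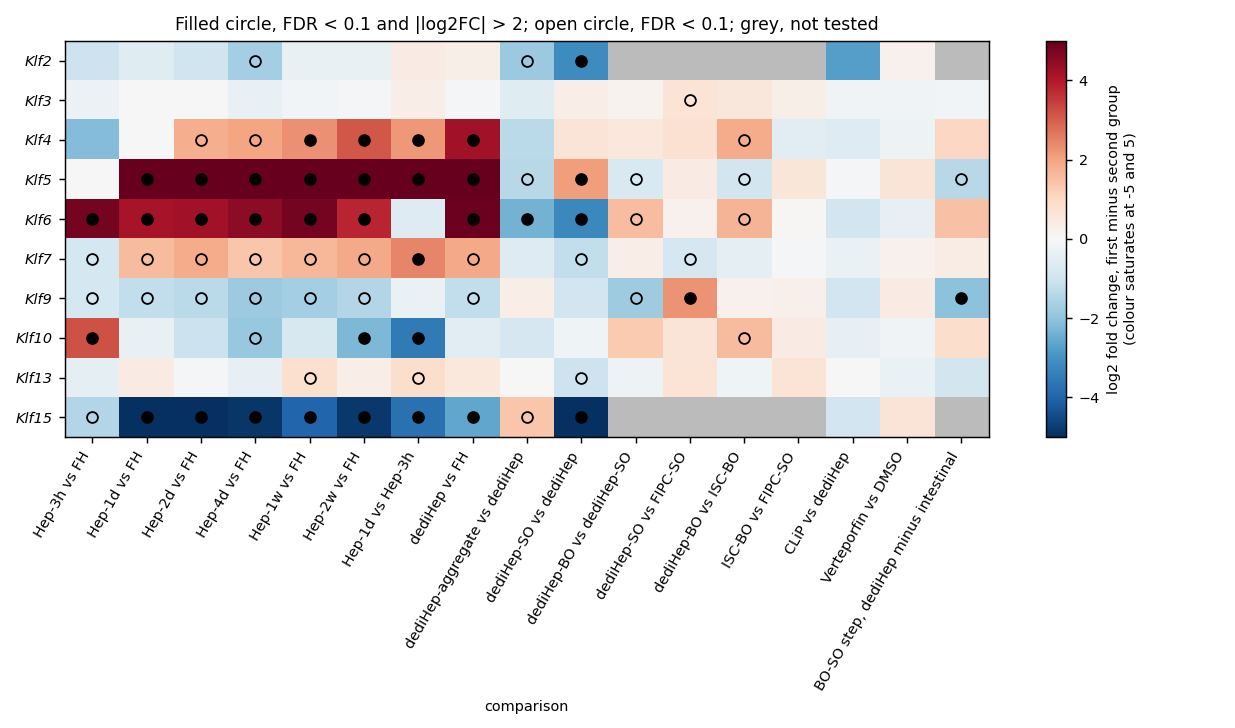
Log2 fold changes (colour, red higher and blue lower in the first group, saturated at -5 and 5) of the 10 members (rows) in 17 comparisons (columns); filled circles mark an FDR under 0.1 with an absolute log2 fold change over 2, open circles an FDR under 0.1 only, and grey cells were not tested. Klf5 against FH is fitted against 0 counts and its colour is no bound. Klf5, Klf6 and Klf15 carry most filled circles.

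Over all 16 conditions the members differed in how far their means ranged. The mean of Klf15 ran from 111 CPM in FH to 0.154 CPM in dediHep-SOs, and that of Klf3 from 395 CPM in dediHep-BOs to 182 CPM in aggregates, a ratio of 2.17. Klf5 was highest in ISC-BOs at 229.6 CPM and at 0 in FH and Hep-3h, Klf6 was lowest in FH at 18.1 CPM, and Klf9 was highest in FH at 705 CPM and lowest in FIPC-SOs at 34.1 CPM. Klf4 was highest in dediHep-BOs at 91.6 CPM, Klf7 in the Verteporfin libraries at 203 CPM, Klf10 in Hep-3h at 696 CPM, Klf13 in Hep-1w at 239 CPM and Klf2 in dediHeps at 17.1 CPM. The highest mean of Klf6, 580.0 CPM in dediHeps, rested on replicate 1, and by the median dediHeps, at 358 CPM, lay below Hep-3h, at 497 CPM. By library total alone, without TMM, these medians were 416 CPM in dediHeps and 298.5 CPM in Hep-3h, the reverse order.

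Most neighbours in these orders overlapped. When conditions were ranked by their mean, the libraries of adjacent conditions were separate for 4 of 15 neighbour pairs in Klf4, 2 of 15 in Klf5 and Klf7, 1 of 15 in Klf9, Klf10, Klf13 and Klf15 and none of 15 in Klf2, Klf3 and Klf6. The share over all genes was not computed, and groups with fewer libraries separate more easily. These counts therefore do not show whether the members separate more or less than other genes.

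Some members followed each other over the 16 condition means of log2 CPM. Pearson correlations, given as a description, were 0.853 for Klf4 with Klf5, 0.743 for Klf9 with Klf15, -0.836 for Klf5 with Klf15 and -0.769 for Klf5 with Klf9. The points share libraries and TMM scaling, and 7 of the 16 are stages of a single time course. Among 14653 genes, the 2 most like each member were named. They were Myl12a (0.956), a myosin light chain, and Cops8 (0.918) for Klf6, Rbp4 (0.976), the retinol carrier secreted by hepatocytes, and Tlcd2 (0.953) for Klf9, Tmem164 (0.95) and the receptor gene Erbb2 (0.949) for Klf4, and Tamm41 (0.957) and Paqr4 (0.956) for Klf5. For Klf7 they were Pygo2 (0.941) and Uba6 (0.941), for Klf10 Map3k8 (0.935) and Rnaset2a (0.927), for Klf15 Vkorc1 (0.901) and Mmp19 (0.899), for Klf13 Mgat1 (0.871) and Inpp5f (0.851), for Klf2 Cpne2 (0.838) and Srp14 (0.827) and for Klf3 Msx1 (0.819) and Gm9800 (0.805). By Spearman's measure the first of these stayed the same only for Klf6.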

How the data were processed

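The authors deposited 1 table of UMI counts, whole numbers without normalization, made with CEL-Seq2 and the celseq2 pipeline. The submitters' processing notes name bcl2fastq 2.20, Bowtie2 2.3.1, HTSeq 0.6.0 and GRCm38. Of its 46078 identifiers, 45143 had a symbol in GENCODE M21, and 0 columns were unused. The 10 members and all lists were chosen with earlier results of these data known. The rule for named genes took all members in every comparison, other Klf and Sp genes past an FDR under 0.1 in any comparison, the listed corepressor, ligase, glucocorticoid-response and early-response genes, and for each member the 2 genes with the highest Pearson correlation of mean log2 CPM (prior count 4). List genes given as examples were picked after their values were seen.

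Tests used edgeR 4.0.16 (quasi-likelihood F-test, TMM, filterByExpr with a minimum count of 10 and a minimum total of 15, Benjamini-Hochberg over all genes tested) in R 4.3.3, with thresholds taken from the study's methods. The 7 groups of the time course entered 1 fit, the 4 organoid groups 1 fit for the interaction, and each other comparison only its 2 groups. SEs were derived from the F statistics, and the test was checked on simulated data. Where a group held 0 counts, folds are bounds against 3 counts over the group, and with 1 to 3 counts an exact 95% binomial counting interval is given, which covers counting error only. A floor of 3 counts was 0.775 to 3.48 CPM of a library's total. Pairing was checked as the correlation of deviations from group means: aggregates and their dediHep cultures, which share culture names in the labels, correlated at 0.178 to 0.332 over 3 pairs, dediHep-SOs and theirs at -0.466 to 0.0283. Other groups shared only replicate numbers. Alternatives were RLE scaling, no filter, DESeq2 1.42.0, all 49 libraries in 1 fit, an FDR under 0.05, a block and leaving out each library. A correction for UMI sequences shared by chance was added after the counts were seen. It takes a UMI length of 6 bases, inferred from the highest count.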

Additional observations from a re-analysis of the deposited data

Results flagged for a closer look

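Klf6 in dediHep replicate 1 stood far from the other 4 dediHep libraries, at 1330 CPM against 322 to 534 CPM. Its gap to the nearest library exceeded Dixon's 95% critical value, which chance exceeds in about 1 of 20 groups, and 20 sets of 4 or 5 libraries were checked. The library held 2383 Klf6 counts, and a correction for shared UMI sequences, with an inferred UMI length of 6 bases, raised that count by 49.9%.

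The difference between budding and spherical organoids was not the same in the dediHep pair and in the pair of FIPC-SOs and ISC-BOs for Klf5, with an interaction of -1.38 on the log2 scale (FDR 0.0597), and for Klf9, with -2.07 (FDR 0.0787), both in edgeR over 4 groups. The intestinal pair differs in age, only the dediHep-BOs carry the Cdx2 virus, and Wnt3a and a Wnt agonist were withdrawn to obtain dediHep-BOs. The Klf5 interaction was lost without any 1 of 6 libraries (FIPC-SO replicates 2 and 3, dediHep-BO replicates 1 and 2, dediHep-SO replicates 1 and 2; FDR 0.124 to 0.159) and with all 49 libraries in 1 fit (FDR 0.248). The Klf9 interaction was lost without any 1 of 9 libraries (FDR 0.1 to 0.191) and with a replicate block (FDR 0.117).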

How the results depend on the processing

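A log2 difference that passed the FDR threshold in either setting counted as unchanged if it kept its direction and its side of the thresholds. One that passed in neither counted as unchanged if it moved by less than its SE, whatever its direction. Of the 160 log2 differences of members, 155 were unchanged under RLE scaling, 150 with DESeq2, 150 without the low-count filter, 149 at an FDR under 0.05 and 144 with all 49 libraries in 1 fit, and none that had passed was reversed. The number of members called changed in many comparisons. Between 1 day and 3 h it was 4 in place of 5 with DESeq2, RLE scaling and an FDR under 0.05. It was also 4 there without the filter and with all 49 libraries in 1 fit. In these last settings dediHeps against FH gave 5 in place of 4. The count at 4 days against FH was then 4 in place of 3. With the shared culture as a block, dediHep-SOs against dediHeps gave 3 in place of 4. The interaction count went from 1 to 0 at an FDR under 0.05 and to 0 with the replicate block. Klf2 accounted for CLiP counts of 1 in place of 0 with DESeq2, without the filter and with all 49 libraries, and for dediHep-SO against FIPC-SO counts of 2 in place of 1 without the filter and with all 49 libraries.

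With the replicate block, or the shared culture where the labels give one, dediHep-BOs against ISC-BOs gave 1 in place of 0 (Klf10, 2 on the log2 scale), and aggregates against dediHeps 2 in place of 1. Apart from these and the interaction count given above, the block moved no count of calls by over 1.5 times. Where groups shared only a number, correlations of deviations ran from -0.57 to 0.523. Leaving out each library gave 0 to 2 members called in the interaction, 3 to 6 at 4 days, 0 to 1 for dediHep-BOs against ISC-BOs, 0 to 2 for dediHep-BOs against dediHep-SOs, 0 to 1 for dediHep-SOs against FIPC-SOs and 0 to 2 for aggregates. With counts corrected for shared UMIs no count of calls changed by over 1.5 times, and Klf7 was called at 2 days and 2 weeks (2.01 each). Depth limits members near the floor of 3 counts, which include Klf2 and Klf15 in the organoids.

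Single members also changed sides with all libraries kept. With DESeq2, Klf10 passed the FDR threshold between dediHep-BOs and dediHep-SOs (FDR 0.0584), Klf13 between ISC-BOs and FIPC-SOs (FDR 0.0671), Klf3 between aggregates and dediHeps (FDR 0.0732), Klf6 between 1 day and 3 h (FDR 0.0873) and Klf9 between CLiPs and dediHeps (FDR 0.0704), while Klf4 between 1 day and 3 h did not (FDR 0.202). With all 49 libraries in 1 fit, Klf9 passed between dediHep-SOs and dediHeps (FDR 0.0556), and Klf5 (FDR 0.363) and Klf10 (FDR 0.206) no longer passed between dediHep-BOs and ISC-BOs. Without the low-count filter the 3 h differences of Klf7 (FDR 0.297) and Klf9 (FDR 0.141) and the Klf3 difference between dediHep-SOs and FIPC-SOs (FDR 0.15) did not pass, and Klf4 was called at 4 days (2.06). With a replicate block Klf3 passed between dediHep-BOs and ISC-BOs (FDR 0.0853) and Klf5 no longer passed between dediHep-BOs and dediHep-SOs (FDR 0.187). The cause was not tested.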

Other observations

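Of the 8 other Klf genes only Klf11 and Klf16 had enough counts for a test, and both passed in several comparisons. Klf16 was called higher in Hep-1w than in FH (2.06 on the log2 scale) and higher in Hep-1d than in Hep-3h (3.41, 112 against 4 counts), and passed the FDR threshold above FH at 1 day (1.91), 2 days (1.70) and 2 weeks (1.75). Klf11, a Sin3A-binding relative of Klf10, rose at 3 h (1.33, FDR 0.0758), from 25.2 to 63.7 CPM, fell from 3 h to 1 day (-1.47, FDR 0.0139) and lay below FH at 2 days (-1.28), 4 days (-1.73) and 2 weeks (-1.31). It was also lower in dediHep-SOs than in dediHeps (-1.83, FDR 0.0333) and higher in dediHep-BOs than in dediHep-SOs (1.21, FDR 0.0231) and ISC-BOs (0.88, FDR 0.0975).

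Of the Sp genes, Sp4 was lower than FH at 1 day (-1.59, FDR 0.0644) and 2 days (-1.39, FDR 0.0888), and its interaction of the organoid step with origin was 1.63 (FDR 0.0576). Sp2 was higher in Hep-1w than in FH (1.07, FDR 0.0679) and lower in aggregates than in dediHeps (-1.14, FDR 0.0914). Sp3 fell from 3 h to 1 day (-0.96, FDR 0.0657) and was higher in dediHep-BOs than in dediHep-SOs (0.97, FDR 0.0674), and Sp5 was lower in ISC-BOs than in FIPC-SOs (-1.31, FDR 0.027). All FDR values are from the quasi-likelihood test of edgeR.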
